A study of Saccharomyces cerevisiae with 4 samples.

Results

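The 9 genes of fatty acid synthesis, desaturation, elongation and activation described here were read on dual-colour arrays that set a *Saccharomyces cerevisiae* trk1 trk2 double mutant against its wild type. They were chosen by systematic ORF name, with no measured value in the rule but with earlier results of these data known. All 9 have a row among the 6212 rows of the deposited table. Of these, 6, namely FAS1, OLE1, ELO1, ELO2, ELO3 and FAA4, had a value on all 4 arrays, as did 4255 rows in all. ACC1 had a value on 3 arrays, and FAS2 and FAA1 were empty on all 4. An empty cell gives no direction, so nothing is said here of FAS2 or FAA1.

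The mutant lacks TRK1 and TRK2, the high-affinity potassium uptake system of the plasma membrane, and the wild type keeps both. Both strains are labelled BY4741, a haploid laboratory strain of mating type a that in its standard form carries deletions in HIS3, LEU2, MET15 and URA3, and the labels give no further allele. Cultures of 50 ml grew at 28 °C in a potassium-free medium whose own potassium was 15 µM, with 50 mM KCl added, and log-phase cells were collected at an A600 of 0.6. RNA came from whole cultures, so fewer cells holding a transcript and less of it per cell cannot be told apart. A ratio gives no level, so the labelled cell type could not be checked against marker levels. The mutant was labelled with Cy5 on arrays 1 and 4 and with Cy3 on arrays 2 and 3. The labels do not say which 2 arrays form an experiment. Experiment 1 was assumed to be arrays 1 and 2, and experiment 2 arrays 3 and 4, and every standard error, p-value and gap between experiments rests on that pairing.

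In yeast, acetyl-CoA carboxylase (ACC1) makes malonyl-CoA, and the cytosolic fatty acid synthase, built from the FAS1 and FAS2 proteins, uses it to make saturated acyl chains of medium and long length. OLE1, the only fatty acid desaturase of this yeast, puts a double bond into those chains and so supplies the unsaturated fatty acids of its membranes. The elongases lengthen acyl-CoA: ELO1 acts on medium chains, and ELO2 (FEN1) and ELO3 (SUR4) make the very long chains found in ceramides. FAA1 and FAA4 are the main acyl-CoA synthetases that activate fatty acids taken up from outside. Transcription of ACC1, FAS1 and FAS2 is under Ino2, Ino4 and Opi1, and that of OLE1 under the membrane-bound factors Mga2 and Spt23.

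The data show lower ratios for the desaturase and a synthase subunit and no called change in the elongases. OLE1 fell 2.7-fold in the mutant, with nearly the same ratio on each of the 4 arrays. FAS1 fell 2.6-fold on average, much more in experiment 1 than in experiment 2. FAA4 read 1.56-fold lower without passing the test, and the means of ELO1, ELO2 and ELO3 over all 4 arrays were within 1.25-fold in either direction. In the test over all 4255 genes, 2 of the 6 genes tested were lower and 0 higher, where 1.74% of all genes tested were called lower and 1.62% higher. The test was limma on the means of the 2 experiments, and a call needed a Benjamini-Hochberg adjusted p below 0.05. Values below are log2 ratios, mutant over wild type, and errors are moderated standard errors with n = 2 experiments. The median of the 6 genes was −0.48, against −0.04 over all 4255 genes.

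**Figure D1:**
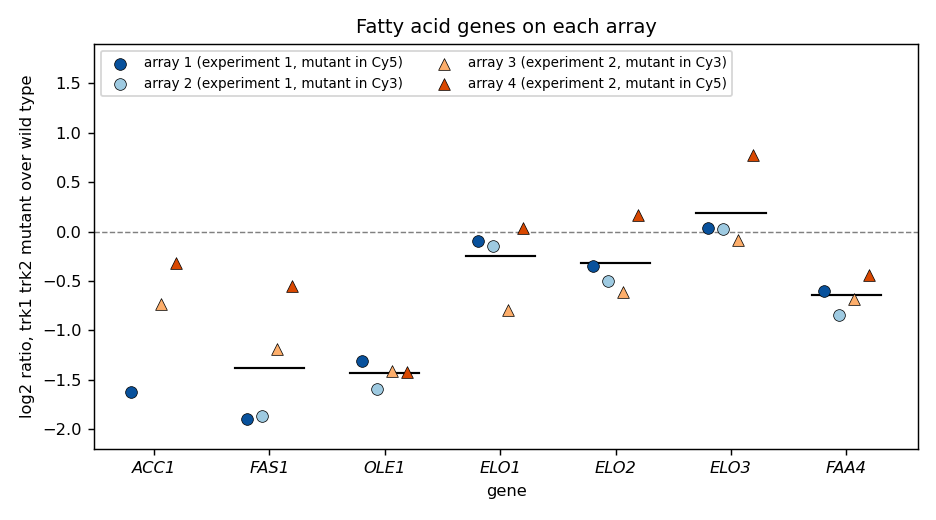
Log2 ratio of the trk1 trk2 mutant over the wild type (vertical axis) for the 7 fatty acid genes with a value, with 1 symbol per array. Circles are experiment 1 and triangles experiment 2, dark symbols mark arrays with the mutant in Cy5, and the black bar is the mean of the 2 experiments for genes on all 4 arrays. OLE1 lies between −1.59 and −1.31 on every array, while FAS1 spreads from −1.90 to −0.55.

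The arrays did not read alike. Across the 4255 genes, which are not independent replicates, arrays 1 and 2 had a Pearson correlation of 0.80, and array 4 correlated with the others at 0.27 to 0.39. Array 3 correlated at 0.55 with array 1 and 0.69 with array 2, but at 0.39 with array 4, its assumed partner. It thus read more like both arrays of experiment 1 than like the other array of experiment 2, and the assumed pairing was not tested. All these correlations were positive across both dye orientations, so the 4 columns run in one direction. TRK1, deleted in the mutant, read −6.13 on array 1 and −4.60 on array 4 and was empty on the other arrays, and TRK2 read −4.23 on array 4, its only value. These values put the mutant on top of the ratio, which is also the order in the array titles. Separate cultures for the 2 experiments are known only from the word independent in the labels, so the p-values may in part measure technical spread.

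The first step of the pathway was read incompletely. ACC1 (YNR016C) stood at −1.63 on array 1, −0.73 on array 3 and −0.32 on array 4, and was empty on array 2. All 3 values were negative, but the value of experiment 1 is array 1 alone and lies far below both arrays of experiment 2. Among the values of its own array, ACC1 had 0.625% of values below it on array 1, 10.5% on array 3 and 24.7% on array 4. ACC1 was outside the main test, which needs 4 values. In a fit of the 4882 genes with at least 1 array of each experiment it read −1.08 ± 0.29 and was not called (limma adjusted p = 0.141), and 0.799% of genes were called lower there. HFA1, the mitochondrial acetyl-CoA carboxylase and a paralog of ACC1, was also empty on array 2 and read −1.07, −0.26 and −0.56 on arrays 1, 3 and 4. Without probe sequences, cross-hybridisation between the paralogs could not be told apart from their own signal.

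FAS1 (YKL182W), the beta subunit of the fatty acid synthase, read −1.90, −1.86, −1.19 and −0.55 on arrays 1 to 4. All 4 values were negative, the arrays of experiment 1 nearly equal to each other and below both arrays of experiment 2. The mean was −1.38 ± 0.26, a 2.6-fold lower ratio in the mutant with a 95% interval of 1.69-fold to 4-fold, and limma's adjusted p was 0.0473. FAS1 had the 30th lowest mean of the 4255 genes. Its experiment means, −1.88 and −0.87, differed by 1.01, a gap that 3.97% of the genes matched or exceeded, where the median gap was 0.25. Among the values of each array, 0.396%, 0.448%, 3.12% and 13.6% lay below FAS1 on arrays 1 to 4. The call ended when array 1, 2 or 3 was left out (adjusted p = 0.0664, 0.0864 and 0.52) and held without array 4 (adjusted p = 0.0238, at −1.54). It also ended in the fit of genes with at least 1 array of each experiment (0.0822), with scaled arrays (0.0568), with robust shrinkage (0.0588) and with a dye term (0.0516). The other dye-balanced pairing of arrays, 1 with 3 and 2 with 4, gave 0.00399. The call also held in limma with centred arrays (adjusted p = 0.0309). It held with 4 separate arrays (0.0195) and at least 2 unaveraged values (0.0292), fits that count dye-swapped repeats as replicates. It held too with the experiment as a random block (0.0177), which with a correlation of −0.0461 within experiments comes close to doing so. In all, 6 of 13 alternatives kept it, these fits of unaveraged arrays among them.

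OLE1 (YGL055W), the delta-9 acyl-CoA desaturase, read −1.31, −1.59, −1.42 and −1.43 on arrays 1 to 4. No array stood apart. The mean was −1.44 ± 0.16, a 2.7-fold lower ratio in the mutant with a 95% interval of 2.06-fold to 3.55-fold, and limma's adjusted p was 0.0101. OLE1 had the 27th lowest mean of the 4255 genes, and it was 1 of the 21 genes, 0.494% of those on 4 arrays, that read −1 or lower on every array. Its SD over the arrays was 0.12, a spread that 8.2% of genes matched or stayed under, against a median SD of 0.29. The means of experiments 1 and 2 were −1.45 and −1.42. On arrays with the mutant in Cy5 the mean was −1.37, and on those with it in Cy3 −1.503. Between 0.725% and 2.09% of the values on an array lay below OLE1, so its rank also held on array 4. The call was lost without array 3 (adjusted p = 0.272, at −1.44), where no gene of the 4255 passed in limma, the smallest adjusted p was 0.193 and 385 genes had an unadjusted p under 0.05. OLE1 passed in the other 12 alternatives, with adjusted p between 0.00111 and 0.0289 and a log2 ratio between −1.51 and −1.37. Of these, the fits of separate arrays, with a dye term, a random block or unaveraged values count dye-swapped repeats as replicates or nearly so.

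**Figure D2:**
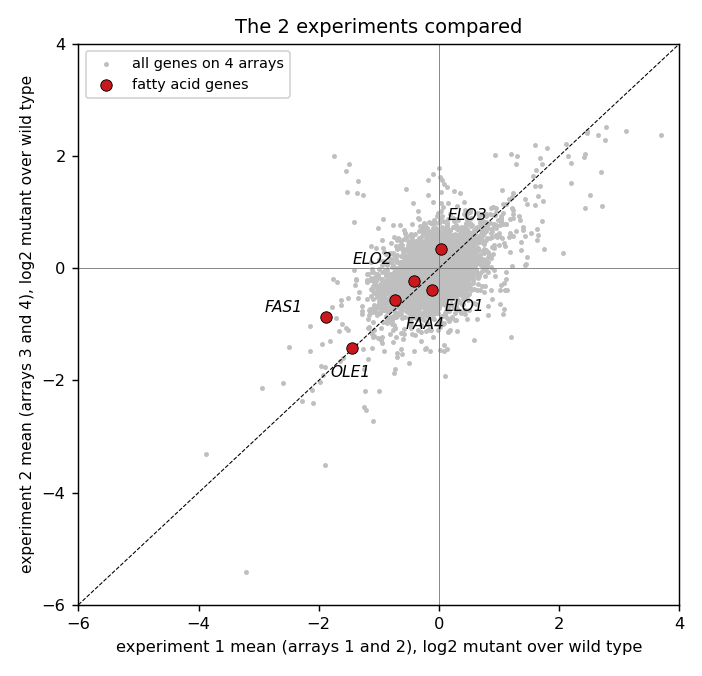
Mean log2 ratio of mutant over wild type in experiment 1 (horizontal axis, arrays 1 and 2) and in experiment 2 (vertical axis, arrays 3 and 4) for the 4255 genes on all 4 arrays (grey) and the 6 fatty acid genes among them (red). The dashed line marks equal values. OLE1 lies on the line at −1.45 and −1.42, and FAS1 lies off it at −1.88 and −0.87.

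OLE1 and FAS1 had like means from unlike arrays. FAS1 read lower than OLE1 by 0.59 and 0.27 on arrays 1 and 2, and higher by 0.22 and 0.88 on arrays 3 and 4. This difference was not tested. By root mean square difference over the 4 arrays, the genes nearest to OLE1 were MDH2 (YOL126C; 0.19), the cytosolic malate dehydrogenase, BNA5 (YLR231C; 0.2), the kynureninase of NAD synthesis, and TNA1 (YGR260W; 0.253), the nicotinic acid transporter. Their means were −1.60, −1.35 and −1.27. FAS1, at 0.557 from OLE1, was the nearest of the other 5 fatty acid genes.

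The elongases were not called. ELO1 (YJL196C) read −0.10, −0.14, −0.80 and 0.03 on arrays 1 to 4, with a mean of −0.25 ± 0.17 and a 95% interval of −0.66 to 0.16 (limma adjusted p = 0.453). Array 3 was the low one. ELO2 (YCR034W) read −0.35, −0.50, −0.61 and 0.17, with a mean of −0.32 ± 0.17 and an interval of −0.73 to 0.08 (limma adjusted p = 0.335). It was negative on arrays 1 to 3 and positive on array 4. ELO3 (YLR372W) read 0.04, 0.02, −0.09 and 0.78, with a mean of 0.19 ± 0.17 and an interval of −0.23 to 0.61 (limma adjusted p = 0.575). Its values lay near 0 on 3 arrays and high on array 4, and its mean was −0.03 without array 4 and 0.41 without array 3. Leaving out 1 array also moved the means of ELO1, to −0.46 without array 4 and −0.04 without array 3, and of ELO2, to −0.52 without array 4 and −0.13 without array 3. ELO3 read higher than ELO2 on each array, by 0.39, 0.52, 0.52 and 0.61, a difference that was not tested. Each elongase read higher than OLE1 on all 4 arrays, by 0.62 to 2.21.

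The arrays with the mutant in Cy5 and in Cy3 differed for the elongases in experiment 2 and little in experiment 1. In experiment 1 the Cy5 array read higher by 0.05, 0.15 and 0.01 for ELO1, ELO2 and ELO3, beside a median of 0.09 over all genes. In experiment 2 it read higher by 0.83, 0.78 and 0.87, beside a median of 0.16 over all genes. FAS1 likewise read 0.64 higher on the Cy5 array of experiment 2, which is array 4. The part of the dye and of array 4 in these values was not tested. With a dye term in the fit the adjusted p of ELO1, ELO2 and ELO3 was 0.317, 0.194 and 0.469.

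FAA4 (YMR246W), an acyl-CoA synthetase, read −0.61, −0.85, −0.68 and −0.44 on arrays 1 to 4. All 4 were negative and lay close together, with an SD over arrays of 0.17. The mean was −0.64 ± 0.17, 1.56-fold lower, with a 95% interval of −1.04 to −0.24 (limma adjusted p = 0.1). FAA4 passed with the other pairing of arrays (adjusted p = 0.018), where 11.1% of all genes were called lower, and also with 4 separate arrays, a dye term, a random block or at least 2 unaveraged values (0.0234 to 0.0433). The fits of separate arrays, with a dye term and of unaveraged values count dye-swapped repeats as replicates. The random block, with an estimated correlation of −0.0461 within experiments, comes close to doing so. The other pairing holds only if it is the right one. OLE1, FAS1 and FAA4 were negative on all 4 arrays, 3 of the 6, where 21.1% of the 4255 genes were so.

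**Figure D3:**
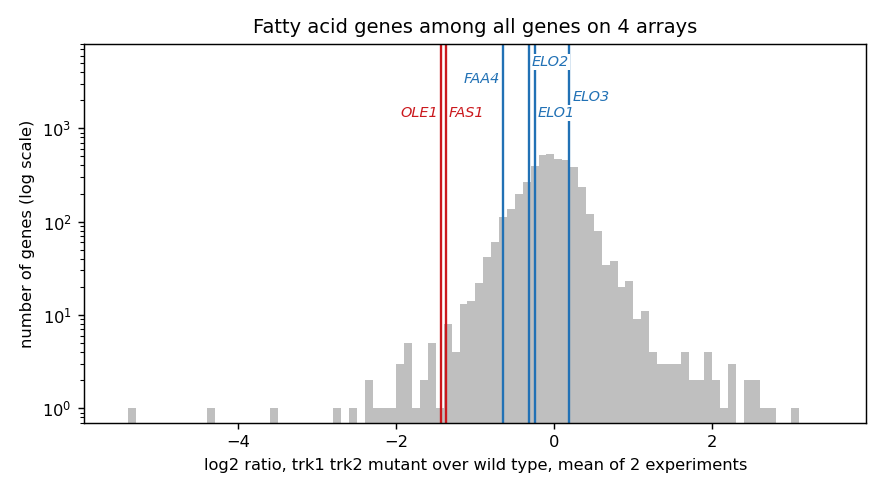
Histogram of the mean log2 ratio of mutant over wild type for the 4255 genes on all 4 arrays, with the number of genes on a log scale. Vertical lines mark the 6 fatty acid genes, red where called and blue where not. OLE1 at −1.44 and FAS1 at −1.38 stand in the low tail, FAA4 at −0.64 on its shoulder, and the 3 elongases between −0.32 and 0.19.

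Beyond these 9, 66 genes in 7 lists cover the neighbouring steps, and 52 of them had a value on all 4 arrays. One of the 52, OPI1, was called lower and 0 higher, beside 1.74% and 1.62% of all genes tested. The median was −0.26, and 39 of the 52, or 75%, had a negative mean, against 55.2% of all genes, and with each array centred on its median these shares were 65.4% and 48.5%. Of the 52, 22 were negative on all 4 arrays, or 42.3%, against 21.1% of all genes. With the other pairing of arrays 14 of the 52 passed, or 26.9%, beside 17.1% of all genes, and the 14 included IFA38, OAF1, SCT1, TES1 and UFD1 (limma adjusted p = 0.0287 to 0.0408). With 1 array left out between 0 and 2 did, 0 of them without array 1, 2 or 3.

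**Figure D4:**
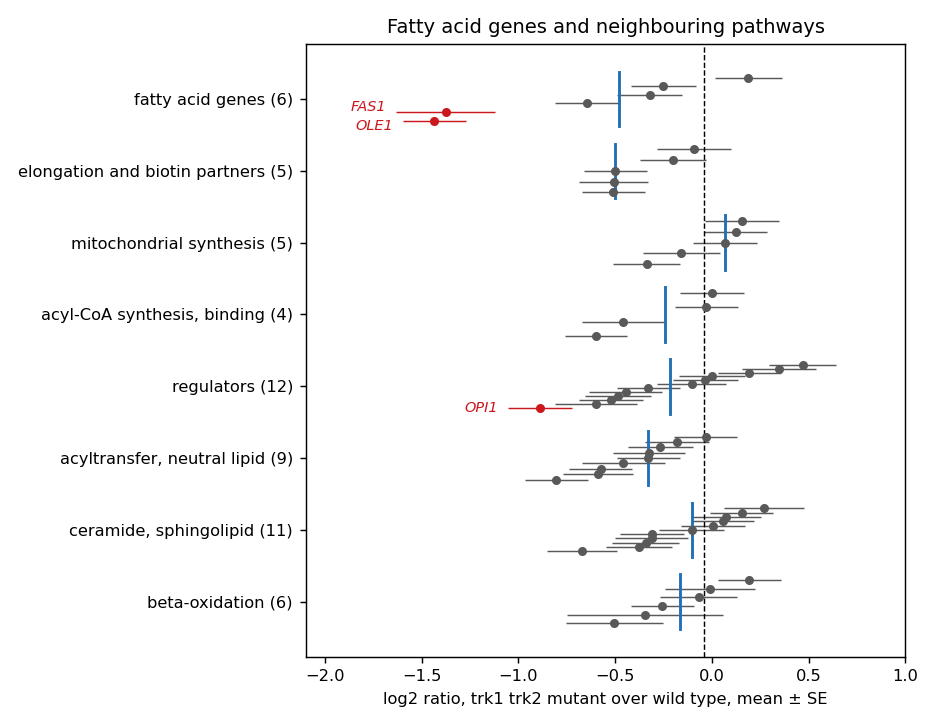
Mean log2 ratio of mutant over wild type with its moderated standard error (horizontal axis) for genes on all 4 arrays, by list, with the number of genes in brackets. Red marks genes past the test, the blue bar is the list median and the dashed line the median of all 4255 genes. FAS1, OLE1 and OPI1 are the genes past the test, and the 9 genes of the acyltransfer and neutral lipid list lie below 0, although with centred arrays SLC1 read 0.020. Of all genes tested, 55.2% had a negative mean.

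Of the 3 regulators tied to ACC1 and FAS1, only OPI1 passed the test, and that call depended on the settings. OPI1 (YHL020C), the repressor of inositol-regulated genes, read −0.72, −1.23, −1.52 and −0.09 on arrays 1 to 4. Array 4 was near 0. Its mean was −0.89 ± 0.17 (limma adjusted p = 0.0473), and the call ended without array 1, 2 or 3 (adjusted p = 0.0616, 0.122 and 0.622), with 4 separate arrays (0.0574) and with scaled arrays (0.0519). It ended too with at least 1 array of each experiment (0.0822) and with at least 2 unaveraged values (0.0746). The activator INO2 (YDR123C) read −0.70, −1.18, −0.49 and −0.03, again nearest to 0 on array 4, with a mean of −0.60 ± 0.21 (adjusted p = 0.185, and 0.0218 with the other pairing). Its partner INO4 (YOL108C) averaged −0.33 ± 0.16 (adjusted p = 0.313).

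The activators of OLE1 and the proteins that release them gave no call. MGA2 (YIR033W), the activator that OLE1 mainly depends on, read −0.90, −0.27, −0.49 and −0.44, negative on every array, with a mean of −0.52 ± 0.16 (adjusted p = 0.149, and 0.0468 with the other pairing). SPT23 (YKL020C), its relative, averaged −0.03 ± 0.17 (adjusted p = 0.927). UBX2 (YML013W), a membrane protein that takes part in their processing, read 0.33, −0.10, 0.07 and −0.30, a mean of −0.0005 ± 0.17 (adjusted p = 0.999). UFD1 (YGR048W), a cofactor of the Cdc48 segregase, had the highest mean of the 12 tested regulators, 0.47 ± 0.17 (adjusted p = 0.198), and was positive on all 4 arrays. OAF1 (YAL051W) and PIP2 (YOR363C), which together activate beta-oxidation genes on oleate, averaged −0.49 ± 0.17 and 0.34 ± 0.19 (adjusted p = 0.185 and 0.367). The kinase SNF1, which inhibits the Acc1 protein, had a single value, −0.06 on array 3.

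Partners of the elongases and of ACC1 read below 0 without a call. Where 55.2% of all genes tested had a negative mean, all 5 did, with a median of −0.50. They were led by BPL1 (YDL141W), which attaches biotin to Acc1, at −0.51 ± 0.16 (adjusted p = 0.152), and IFA38 (YBR159W), the ketoacyl reductase of elongation, at −0.51 ± 0.18 (adjusted p = 0.185). The enoyl reductase TSC13 (YDL015C) averaged −0.20 ± 0.17. Cytochrome b5, CYB5 (YNL111C), an electron carrier in sterol and lipid synthesis, read −0.03, 0.36, −1.32 and 0.61, with values of both signs around a mean of −0.09 ± 0.19.

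Yeast mitochondria hold a separate fatty acid synthesis pathway that serves lipoic acid synthesis. Its 5 genes on 4 arrays had a median of 0.07, with 0 called, beside 1.74% lower and 1.62% higher over all genes. They ran from HTD2 (YHR067W), the dehydratase, at −0.34 ± 0.17, and CEM1 (YER061C), the condensing enzyme, at −0.16 ± 0.20, to MCT1 (YOR221C), the malonyl transferase, at 0.12 ± 0.16, and ETR1 (YBR026C), the enoyl reductase, at 0.16 ± 0.19. PPT2 and OAR1 had a value on array 4 alone, 0.36 and 0.02.

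Among genes that make or bind acyl-CoA, 4 were on all arrays and 0 were called, beside 1.74% lower and 1.62% higher over all genes. ACB1 (YGR037C), the acyl-CoA binding protein, read −0.48, −0.70, −0.74 and −0.48, negative on all 4 arrays. Its mean was −0.60 ± 0.16 (limma adjusted p = 0.112, and 0.0218 with the other pairing). It also passed with 4 separate arrays (0.03), a dye term (0.0446), the random block (0.0254) and at least 2 unaveraged values (0.0439). These last fits count dye-swapped repeats as replicates or nearly so. FAA3 (YIL009W), a further acyl-CoA synthetase, read −0.79, −0.81, −0.54 and 0.31, and averaged −0.46 ± 0.21 (adjusted p = 0.29). FAA2 (YER015W), the peroxisomal synthetase, had values on arrays 3 and 4 alone, −1.09 and −0.57. The acetyl-CoA synthetase ACS2 (YLR153C) and the very long chain synthetase FAT1 (YBR041W) averaged −0.03 and 0.00, each with an error of 0.16.

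Acyltransferases and lipases of glycerolipids and storage lipids had negative means in 9 of 9 cases, where 55.2% of all genes tested had one. With centred arrays, however, SLC1 read 0.020. The list median was −0.33 with 0 called, beside 1.74% lower and 1.62% higher over all genes. ARE2 (YNR019W), the main sterol acyltransferase, read −0.72, −0.97, −1.32 and −0.21. It was nearest to a call, at −0.81 ± 0.16 (limma adjusted p = 0.0562, and 0.018 with the other pairing). ARE2 also passed with 4 separate arrays (0.043), a dye term (0.0469), the random block (0.0367) and without array 4 (0.0372). SCT1 (YBL011W), a glycerol-3-phosphate acyltransferase, averaged −0.59 ± 0.18 (adjusted p = 0.143). It passed with the other pairing (0.0287), 4 separate arrays (0.0499) and the random block (0.044). Fits of separate arrays, with a dye term or a random block count dye-swapped repeats as replicates or nearly so. At the other end stood DGA1 (YOR245C), the diacylglycerol acyltransferase, at −0.18 ± 0.16, and SLC1 (YDL052C), the lysophosphatidate acyltransferase, at −0.03 ± 0.16. TGL3 and TGL5 were empty on all 4 arrays.

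The ceramide and sphingolipid genes, users of the very long chains made by ELO2 and ELO3, split in sign. Of 11 on all arrays 6 had a negative and 5 a positive mean, where 55.2% of all genes tested had a negative one. Their median was −0.10, with 0 called, beside 1.74% lower and 1.62% higher over all genes. SCS7 (YMR272C), which hydroxylates the very long chain of ceramide, read −0.38, −0.56, −0.76 and −1.0, with a mean of −0.67 ± 0.18 (adjusted p = 0.111). It passed with the other pairing (adjusted p = 0.0193), 4 separate arrays (0.0336), the random block (0.0295) and at least 2 unaveraged values (0.0471). Apart from the other pairing, these count dye-swapped repeats as replicates or nearly so. IPT1 (YDR072C), which adds the last inositol phosphate to sphingolipids, averaged −0.38 ± 0.17, and the sphinganine hydroxylase SUR2 (YDR297W) 0.15 ± 0.16. SUR1 (YPL057C), a mannosyltransferase subunit, read 0.55, 0.64, 0.62 and −0.73, positive on arrays 1 to 3 and negative on array 4.

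Beta-oxidation, the route that breaks fatty acids down in peroxisomes, was thinly read. Of 11 listed genes 6 were on all arrays, with a median of −0.16 and 0 called. Over all genes tested, 1.74% were called lower and 1.62% higher. TES1 (YJR019C), a peroxisomal thioesterase, read 0.20, −0.25, −1.16 and −0.82, and averaged −0.51 ± 0.25 (adjusted p = 0.317). POT1 (YIL160C), the thiolase, read 0.75, 0.42, 0.66 and −3.22, so that its mean of −0.35 ± 0.40 describes no array. PEX11 (YOL147C), a peroxisome division factor, averaged −0.01 ± 0.23, and the ATP carrier ANT1 (YPR128C) 0.19 ± 0.16. The list median was 0.34 and 0.11 on arrays 1 and 2, and −0.25 and −0.51 on arrays 3 and 4.

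By root mean square difference over the 4 arrays, the genes nearest to ELO3, the fatty acid gene whose mean was closest to 0, were TIF3 (YPR163C; 0.056), a translation initiation factor, RRT14 (YIL127C; 0.0632) and RPS24A (YER074W; 0.0673), a ribosomal protein. Their likeness to ELO3 on array 4 follows from being chosen as nearest over these 4 arrays. They read 0.71, 0.81 and 0.70 there, and between −0.11 and 0.14 on the other arrays.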

How the data were processed

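The authors deposited 1 log2 ratio of mutant over wild type for each spot and array. Per the labels, they left out spots smaller than 120 µm or dimmer than 100 fluorescence units, and cDNA was made from 8 µg of total RNA with an oligo(dT) primer. How the ratios were normalized is not given in the sources used here, nor is their log base. It was taken as 2, on which each fold rests. No spot brightness was in use, so the precision of a value was judged from the 4 arrays alone.

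RefSeq locus tags gave symbols for 5662 of 6212 rows. Arrays were paired into experiments by the wording of their descriptions and their opposite dyes, and averaged. limma 3.58.1 (lmFit and eBayes, R 4.3.3) compared the 2 means with 0 over genes with 4 values. The procedure was also run on simulated data, in which arrays of an experiment shared an effect and no dye effect was added. In the real arrays the estimated correlation within experiments was −0.0461, so the simulation does not speak for the assumed pairing. The 9 genes, the 7 lists and the rule for naming genes (list members past the test, the 2 highest and 2 lowest of each list, set regulators, and the 3 genes most like OLE1 and ELO3) were chosen with earlier results of these data known. FAA2, HFA1, PPT2, OAR1, TGL3 and TGL5 were named after their values were seen.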

Additional observations from a re-analysis of the deposited data

Results flagged for a closer look

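Of 45 named genes on all 4 arrays, 5 had 1 array whose gap to the nearest other array, as a share of the whole range, exceeded Dixon's 95% critical value. Chance flags about 1 in 20 such groups. On array 4, ELO3 read 0.78 against −0.09 to 0.04 on the others, SUR1 −0.725 against 0.55 to 0.64, POT1 −3.22 against 0.42 to 0.75, and RRT14 0.81 against −0.03 to 0.09. On array 3, TSC13 read −0.52 against −0.13 to −0.07. Thus 4 of the 5 were on array 4, the array that correlated least with the others. RRT14 was named for its likeness to ELO3, so its value there is not separate evidence.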

How the results depend on the processing

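Against 143 genes called, 728 passed with the other pairing of arrays, 413 with 4 separate arrays, 245 with a dye term and 477 with the experiment as a random block. The count was 121 with scaled arrays, 205 with centred arrays and 133 with robust shrinkage. It was 79 of 4882 genes with at least 1 array of each experiment, and 309 of 5221 with at least 2 unaveraged values. With 1 array left out it ran from 0 to 217. The other fits tested 4255 genes. Fits of separate arrays, with a dye term, a random block or unaveraged values count dye-swapped repeats as replicates or nearly so. Against 2 called fatty acid genes, 3 passed with the other pairing, 4 separate arrays, the random block or at least 2 unaveraged values, and 2 with a dye term or centred arrays. Only 1 passed with scaled arrays, robust shrinkage or at least 1 array of each experiment, and 0 to 2 with 1 array left out. The median of the 6 genes ran from −0.61 without array 4 to −0.36 without array 3. Against 1 called neighbouring gene, 14 passed with the other pairing, 5 with 4 separate arrays, 3 with a dye term, 6 with the random block, 2 with at least 2 unaveraged values, 0 with scaled arrays or at least 1 array of each experiment, and 0 to 2 with 1 array left out.

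Over the alternatives, the fatty acid genes gave 78 tested values, of which 8 lost a call (FAS1 and OLE1) and 5 gained one (FAA4). The other named genes gave 507, of which 11 lost and 23 gained a call. Signs changed in uncalled genes. With centred arrays ACS2 read 0.023, PEX11 0.043, SLC1 0.020, SPT23 0.017 and UBX2 0.051, and with scaled arrays PEX11 read 0.015 and UBX2 0.0082. With 1 array left out, log2 ratios ran from −0.029 to 0.41 for ELO3, −0.17 to 0.11 for ACS2, −0.57 to 0.39 for CYB5, −0.16 to 0.16 for FAT1, −0.17 to 0.16 for PEX11 and −1.32 to 0.62 for POT1. They ran from −0.15 to 0.091 for SLC1, −0.13 to 0.063 for SPT23, −0.065 to 0.61 for SUR1, −0.034 to 0.37 for TIF3 and −0.11 to 0.11 for UBX2. The causes were not tested. Each array holds both strains, so each ratio already pairs the mutant with the wild type, and the test compared 1 group of ratios with 0.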
